A study of Homo sapiens with 13 samples.

Results

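Expression of 10 AP-1 and immediate early genes was followed in human embryonic stem cells exposed to BMP4: the FOS family genes FOS, FOSB, FOSL1 and FOSL2, the JUN family genes JUN, JUNB and JUND, and EGR1, IER2 and ATF3. They were chosen by gene symbol, and all 10 were found among the 61546 features of both count tables. All 13 libraries came from RUES2, an embryonic stem cell line, carrying a GFP::SMAD4 fusion. They were bulk RNA-seq of cells grown at low density in mTeSR1, a pluripotency medium. ROCK inhibitor (RI) is named in the treatment labels of all libraries but the untreated one, and whether untreated cells had it is not clear. The time series held 7 libraries of cells given 100 ng/mL BMP4, 5 µM IWP2, which blocks Wnt secretion, and RI, in duplicate before any time had passed (0 h, 2 libraries) and singly after 4, 12, 20, 28 and 42 h. At 0 h, too, the labels give that treatment. The dose response held 6 libraries at 5 h: 1 each with BMP4, IWP2 and RI plus 0, 10, 30, 100 or 300 nM of the BMP receptor inhibitor LDN-193189 (LDN), and 1 untreated, labelled mTeSR. Besides the 0 h pair there were no replicates, and nothing in the labels says whether that pair came from separate cultures, so p-values measure a spread that may be technical.

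AP-1 is a dimer of basic leucine zipper proteins, formed by JUN family members with one another or with FOS family members, whereas FOS proteins need a partner. Immediate early genes are those transcribed without new protein synthesis within minutes of a growth factor, stress or handling stimulus, often through serum response factor at CArG boxes, and their messages are usually short-lived. BMP acts through receptors that phosphorylate SMAD1, SMAD5 and SMAD9, which enter the nucleus with SMAD4.

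The promoters of the 3 members that changed with LDN dose (FOSL2, JUND and ATF3) and of EGR1 are shown because their sequences hold the classical sites of these factors. The windows, from RefSeq on GRCh38.p14 and written 5′ to 3′ on the strand of the gene, cover the 250 bases before the annotated start and, for FOSL2, 20 bases after it. ATF3 has 2 such windows, of which the one with a site is shown. They lie at chr2:28392608-28392877 (plus strand), chr19:18281623-18281872 (minus strand), chr1:212565157-212565406 (plus strand) and chr5:138465229-138465478 (plus strand). Capitals mark the AP-1 site TGANTCA in FOSL2, the 8-base forms TGANNTCA in JUND and ATF3, and the CArG boxes in EGR1.
FOSL2: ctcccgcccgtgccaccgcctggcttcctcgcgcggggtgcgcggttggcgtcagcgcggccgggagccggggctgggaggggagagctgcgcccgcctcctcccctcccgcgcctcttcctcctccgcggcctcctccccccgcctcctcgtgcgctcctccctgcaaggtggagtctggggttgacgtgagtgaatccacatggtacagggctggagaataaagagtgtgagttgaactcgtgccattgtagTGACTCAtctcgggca
JUND: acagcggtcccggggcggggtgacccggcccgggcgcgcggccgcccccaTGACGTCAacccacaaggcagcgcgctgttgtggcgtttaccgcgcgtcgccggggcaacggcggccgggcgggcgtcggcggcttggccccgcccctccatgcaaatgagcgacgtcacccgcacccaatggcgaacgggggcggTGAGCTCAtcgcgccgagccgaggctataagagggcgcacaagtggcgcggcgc
ATF3: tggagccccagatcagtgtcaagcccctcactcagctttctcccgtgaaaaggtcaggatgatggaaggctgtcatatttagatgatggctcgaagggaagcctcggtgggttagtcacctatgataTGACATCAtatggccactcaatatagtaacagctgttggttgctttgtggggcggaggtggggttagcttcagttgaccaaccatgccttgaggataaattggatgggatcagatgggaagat
EGR1: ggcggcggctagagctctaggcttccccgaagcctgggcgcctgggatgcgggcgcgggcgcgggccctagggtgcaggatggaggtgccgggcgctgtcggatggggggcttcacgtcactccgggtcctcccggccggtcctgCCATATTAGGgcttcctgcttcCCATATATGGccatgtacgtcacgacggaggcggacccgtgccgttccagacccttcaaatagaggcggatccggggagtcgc
RefSeq windows of 300 bases were at hand for 9 of the 10 members, all but FOSL1. Searched on both strands, the AP-1 site TGANTCA was in 1 of these 9 (FOSL2), against 7.73% of all 34796 windows. The form TGANNTCA was in 3 (JUN, JUND and ATF3), against 11.5%, and its special case TGACGTCA was in JUND, against 1.84%. The CArG box was in EGR1 alone of the 9, against 1.3%. The GC-rich motif GGCGCC, a sequence that SMAD complexes can bind, was in FOS and EGR1, against 19.2%. These matches describe letters in a window and were not tested for occupancy. The windows began 250 bases before the annotated start, so sites further upstream were not searched. In GENCODE on GRCh38 the genes lie at chr14:75278826-75282230 (FOS, plus strand), chr19:45467995-45475179 (FOSB, plus), chr11:65892049-65900573 (FOSL1, minus), chr2:28392448-28417317 (FOSL2, plus), chr1:58776845-58784048 (JUN, minus), chr19:12791486-12793315 (JUNB, plus), chr19:18279694-18281622 (JUND, minus), chr5:138465479-138469303 (EGR1, plus), chr19:13150411-13154911 (IER2, plus) and chr1:212565334-212620777 (ATF3, plus). The main transcripts of JUN, JUNB and JUND have a single exon.

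Library totals ranged from 37957385 to 71333471 counts in the time series and from 15600931 (untreated) to 33989998 in the dose response, so 3 counts, taken as the detection floor, corresponded to between 0.0409 and 0.201 CPM, the library's counts scaled to a common total. The time series was depleted of ribosomal RNA after RNAqueous extraction and the dose response was polyA-selected after RNeasy extraction, so levels were compared within each experiment only. The 6 pluripotent markers summed to between 4168 and 7548 CPM, but 4 of them (SOX2, NANOG, DNMT3B and TDGF1) were lower from 20 h, and at 42 h NANOG stood at 1.24 CPM, SOX2 at 13.4 CPM and TDGF1 at 13.5 CPM. The summed amnion markers went from 14.8 and 17.8 CPM at 0 h to 6914 CPM at 42 h, with no separation of how many cells changed from how much RNA each made. Among them GABRP was lower at 12 and 20 h and higher at 28 and 42 h. Other marker lists were low: primitive streak genes summed to at most 5.29 CPM, neural genes to 1.45 CPM and the blood marker to 0.104 CPM. Of the primitive streak genes EOMES alone was tested, and it was higher at 4, 12, 20 and 28 h. Its level was 0.21 and 0.30 CPM at 0 h and 3.53 CPM at 20 h. Of 4 fibroblast markers 1 or 2 were at 0 in each library, and COL1A1 and COL1A2 brought the sum to between 142 and 262 CPM. All 6 direct BMP response genes checked (ID1, ID2, ID3, SMAD6, SMAD7 and BAMBI) were higher at each time after 0 h and lower with LDN. Mitochondrial counts made up 7.60% and 4.29% of the 0 h libraries and 2.01% to 4.23% of the later ones, and 7.89% of the untreated library against 4.22% to 4.49% of the others at 5 h. Their part in the results was not tested.

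The pair of 0 h libraries set the only direct measure of spread. FOS (7.02 and 6.62 CPM), FOSL2 (4.48 and 4.91 CPM) and ATF3 (7.59 and 8.53 CPM) agreed most closely, with log2 gaps of -0.09, 0.13 and 0.17 for the second library over the first. The median absolute gap over the 15976 genes tested was 0.27. FOSB (1.53 and 0.72 CPM), FOSL1 (3.60 and 1.82 CPM) and JUNB (3.16 and 5.34 CPM) stood furthest apart, by -1.07, -0.99 and 0.75 on the log2 scale. Only 1.76%, 2.37% and 6.57% of genes, respectively, had a larger gap. The gaps of the other members were 0.44 for JUN, 0.33 for IER2, 0.25 for JUND and -0.37 for EGR1. The baseline of FOSB, FOSL1 and JUNB was thus the widest of the 10.

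Members differed in when they passed the test over the time series, and differences in timing between members were not tested. The first library after 0 h was at 4 h, so an earlier, short-lived change could not be seen. FOSL2 (a FOS protein without the transactivation domain of FOS), JUND (the JUN member usually present in unstimulated cells) and FOS were already higher at 4 h. JUN, JUNB and EGR1 were higher from 20 h, whereas FOSL1 was lower at 42 h. IER2 was higher at 12 and 20 h and ATF3 at 28 h, and FOSB passed the test at no time. Counts were scaled by TMM (a normalization to a trimmed mean of log ratios), and each time was compared with 0 h by the quasi-likelihood test of edgeR, with p adjusted by Benjamini-Hochberg over 15976 genes. Each later time was 1 library, and the fit had 1 residual degree of freedom, the 0 h pair, with the spread shared over all genes. At 4 h, 3 members were higher and 0 lower, against 4.39% and 0.632% of all genes. At 12 h, 4 were higher and 0 lower, against 7.04% and 2.64%. At 20 h and at 28 h, 7 were higher and 0 lower, against 12.4% and 6.01% and then 13.3% and 7.04%. At 42 h, 6 were higher and 1 lower, against 19.9% and 17.8%. With limma on log2(FPKM + 0.1) the 4 h changes of FOSL2, JUND and FOS kept their direction but missed the threshold (adjusted p = 0.206, 0.244 and 0.434), as did those at 12 h (0.0527, 0.0935 and 0.174). By the same alternative FOS (adjusted p = 0.0746, 0.0517 and 0.0528) and EGR1 (0.063, 0.0525 and 0.158) missed it at 20, 28 and 42 h, JUNB (0.149 and 0.153) at 20 and 28 h, IER2 (0.26 and 0.0822) at 12 and 20 h, and ATF3 (0.372) at 28 h.

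Of the FOS family, FOSL2 had the largest change of the 10 genes at every time. It stood at 4.48 and 4.91 CPM at 0 h, then 19.4, 38.1, 52.0, 40.4 and 50.04 CPM at 4, 12, 20, 28 and 42 h. All later libraries were above both 0 h libraries, and the level at 28 h did not differ from that at 12 h, nor that at 20 h from that at 42 h, beyond the gap of the 0 h pair. The log2 change was 2.04 (SE 0.31, adjusted p = 4.5e-09) at 4 h and 3.47 (SE 0.31, adjusted p = 1.2e-26) at 20 h. FOS, whose protein is the prototype of the family, measured 7.02 and 6.62 CPM at 0 h and 13.8, 16.9, 17.99, 19.8 and 14.5 CPM at 4, 12, 20, 28 and 42 h. It was highest at 28 h, and no later library overlapped the 0 h pair. Its log2 change was 1.013 (SE 0.31, adjusted p = 0.021) at 4 h and 1.54 (SE 0.30, adjusted p = 4.0e-06) at 28 h. The 4 h call was lost with DESeq2 (adjusted p = 0.198) and without the filter on low counts (adjusted p = 0.103).

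FOSL1, a FOS protein that is induced late after growth stimuli, went the other way. It measured 3.60 and 1.82 CPM at 0 h and 2.40, 1.43, 1.28, 1.37 and 0.47 CPM at 4, 12, 20, 28 and 42 h. The libraries from 12 h on lay below both 0 h libraries, but the change passed the test at 42 h alone, at -2.50 (SE 0.54, adjusted p = 2.7e-05). FOSB was covered by few counts, at 1.53 and 0.72 CPM at 0 h and between 0.70 and 1.72 CPM later. Its later levels overlapped the 0 h pair at 4, 12 and 28 h, fell just below it at 20 h and just above it at 42 h, and no change passed the test. FOSB lies wholly within the span of ERCC1 on the opposite strand, without shared exonic bases.

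Of the JUN family, JUND rose by the largest factor. It stood at 79.6 and 94.4 CPM at 0 h and 219, 292, 567, 555 and 709.9 CPM at 4, 12, 20, 28 and 42 h. Every step up was larger than the 0 h gap except that between 20 and 28 h, where the levels did not differ beyond it. The log2 change was 1.33 (SE 0.33, adjusted p = 0.0018) at 4 h and 3.03 (SE 0.33, adjusted p = 1.4e-18) at 42 h. JUN, a potent activator and target of stress kinases, rose late. It measured 17.3 and 23.5 CPM at 0 h, and 21.8, 19.9, 92.6, 100.0 and 69.6 CPM at the 5 later times. The 4 and 12 h libraries lay between the 0 h libraries, and the next 3 lay far above them. The log2 change was -0.04 (SE 0.33, adjusted p = 0.99) at 12 h and 2.18 (SE 0.31, adjusted p = 1.1e-10) at 20 h.

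JUNB, which can oppose JUN at some promoters, measured 3.16 and 5.34 CPM at 0 h and 4.34, 7.34, 11.8, 11.4 and 17.7 CPM at 4, 12, 20, 28 and 42 h. Only the 4 h library lay within the 0 h pair. The log2 change was 0.77 (SE 0.32, adjusted p = 0.13) at 12 h and 2.05 (SE 0.31, adjusted p = 6.1e-10) at 42 h. The single exon of JUNB shares 259 bases with exons of HOOK2 on the opposite strand, and how strand was handled in counting is not given in the sources used here. HOOK2 stood at 44.97 and 69.9 CPM at 0 h and at 53.2 to 68.1 CPM later, within the range of its 0 h pair.

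EGR1, a zinc finger factor and classical serum response gene, measured 5.29 and 4.09 CPM at 0 h and 5.62, 7.58, 16.6, 16.9 and 9.73 CPM at 4, 12, 20, 28 and 42 h. All later libraries were above both 0 h libraries, with the highest levels at 20 and 28 h. The log2 change was 1.83 (SE 0.31, adjusted p = 6.0e-08) at 20 h and 1.06 (SE 0.31, adjusted p = 0.0031) at 42 h. IER2, a nuclear protein encoded by an immediate early gene, measured 94.3 and 119 CPM at 0 h and 137, 204, 266, 183 and 156 CPM afterwards. It was highest at 20 h with a log2 change of 1.32 (SE 0.32, adjusted p = 0.00049), a call lost with limma on FPKM (adjusted p = 0.0822). At 12 h its call (0.94, SE 0.33, adjusted p = 0.043) was lost with DESeq2 (adjusted p = 0.059). ATF3, a stress-induced bZIP factor that can pair with JUN proteins, measured 7.59 and 8.53 CPM at 0 h, 6.24, 6.23 and 8.02 CPM at 4, 12 and 20 h, and 14.9 and 13.4 CPM at 28 and 42 h. It passed the test at 28 h alone (0.88, SE 0.31, adjusted p = 0.025), a call lost with DESeq2 (adjusted p = 0.158).

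**Figure D1:**
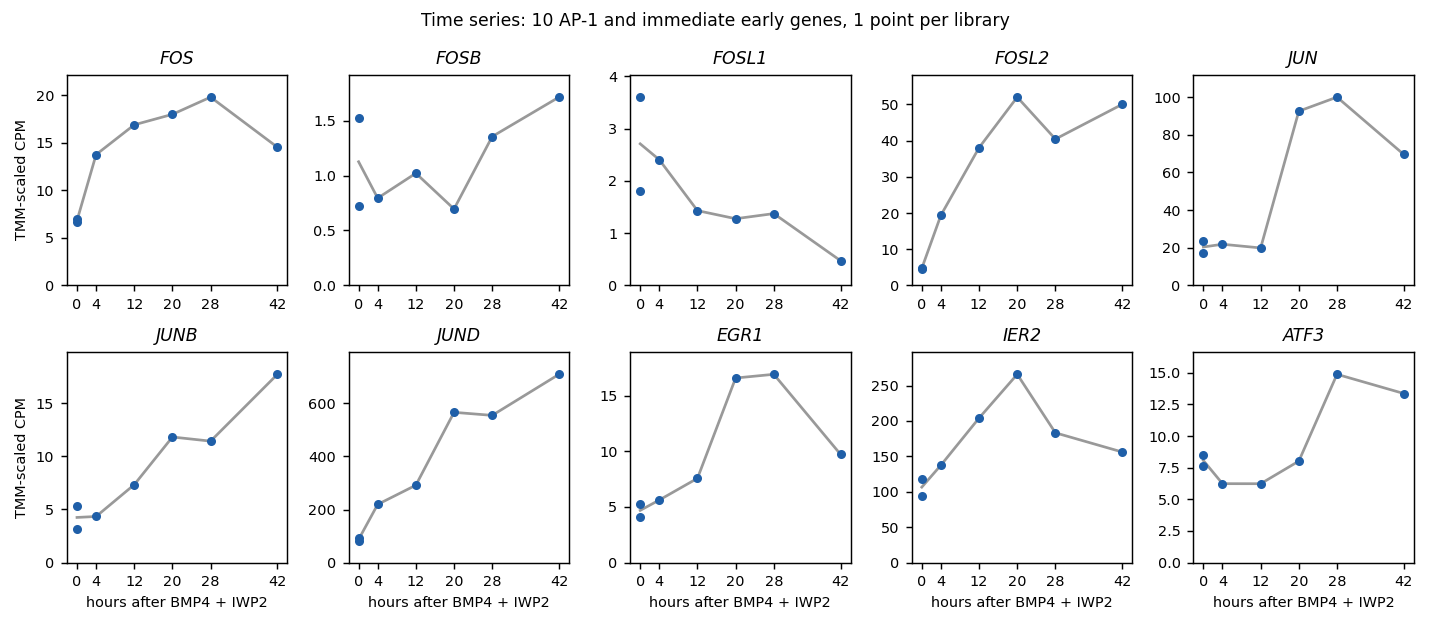
Level of each gene (TMM-scaled CPM, linear axes from 0) against hours after BMP4 and IWP2, with 1 point per library and a line through the mean of the 0 h pair. FOSL2 went from 4.48 and 4.91 CPM to 52.0 CPM at 20 h, JUN stood at 19.9 CPM at 12 h and reached 100.0 CPM at 28 h, and FOSL1 ended at 0.47 CPM.

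**Figure D2:**
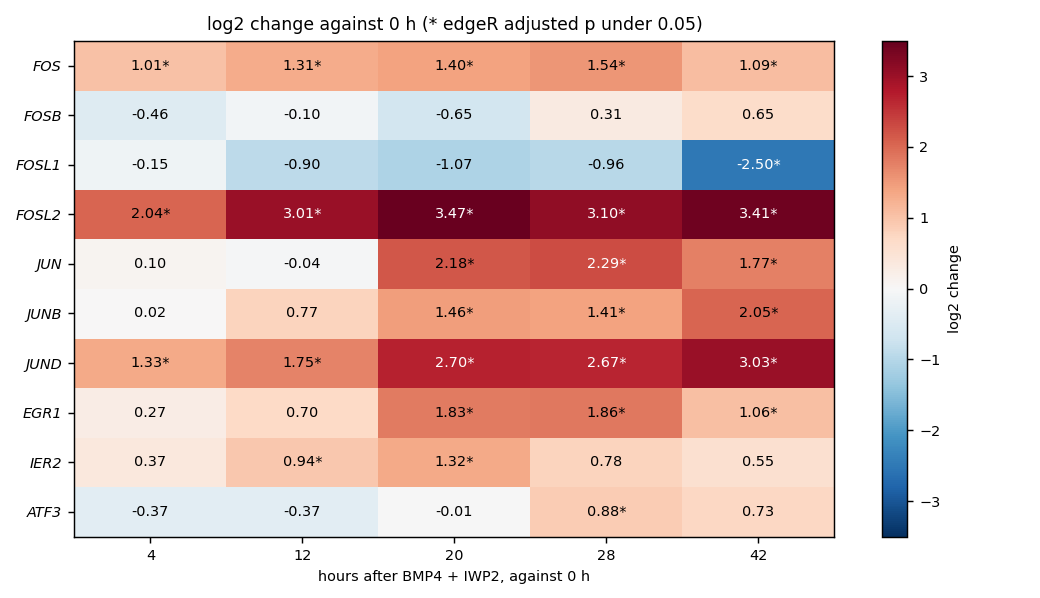
Log2 change of each gene (rows) at each time against the 0 h pair (columns), coloured from blue (lower) to red (higher), with an asterisk where the edgeR adjusted p was under 0.05. FOS, FOSL2 and JUND carry an asterisk from 4 h on, and FOSL1 has the single lower call, at 42 h.

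A line in hours was fitted over all 7 libraries, which measures a net slope and not a steady course. It called 6 members higher (FOSL2, JUN, JUNB, JUND, EGR1 and ATF3) and 1 lower (FOSL1), against 19.2% and 17.5% of 15976 genes. Fitted over 42 h, JUND rose by 3.02 (SE 0.57, adjusted p = 0.0049) and JUNB by 2.18 (SE 0.33, adjusted p = 0.0018) on the log2 scale, and both calls held in 7 of 7 fits without 1 library. JUN rose by 2.65 (SE 0.69, adjusted p = 0.019), a call lost without the first 0 h library (adjusted p = 0.067). FOSL1 changed by -2.17 (SE 0.48, adjusted p = 0.0099), a call lost without the 42 h library (adjusted p = 0.091). FOSL2 (adjusted p = 0.048), EGR1 (adjusted p = 0.049) and ATF3 (adjusted p = 0.044) lay at the threshold, and each held in 2 of 7 such fits. FOSL2 lost its call without either 0 h library (adjusted p = 0.12 and 0.11) or the 4, 20 or 28 h library (0.071, 0.056 and 0.078). EGR1 lost its call without either 0 h library (0.13 for both) or the 4, 12 or 28 h library (0.11, 0.075 and 0.12). ATF3 lost its call without the first 0 h library (0.079) or the 4, 12, 28 or 42 h library (0.096, 0.054, 0.094 and 0.13). Without the 42 h library FOS (adjusted p = 0.026) and IER2 (adjusted p = 0.048) were called as well.

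The dose response asked which members followed the strength of BMP receptor signaling at 5 h. Against the order of the 5 LDN doses (0, 10, 30, 100 and 300 nM, taken as equal steps), FOSL2 and JUND fell and ATF3 rose. That is 1 member higher and 2 lower of the 9 tested, against 10.4% and 10.9% of 14907 genes. FOSB stayed below the filter of a mean of 1 CPM and was not tested.

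FOSL2 measured 13.04 CPM without LDN, then 10.0, 6.06, 5.17 and 4.35 CPM at 10, 30, 100 and 300 nM. Each dose was below the one before, and the untreated library stood at 4.28 CPM. The trend was -0.42 per step on the log2 scale (SE 0.04, adjusted p = 1.1e-05) and held in 5 of 5 fits without 1 library. The FPKM values deposited for FOSL2 did not follow the counts: they were 2.06, 1.56, 0.94, 1.3 and 1.28 from 0 to 300 nM, and 0.64 untreated. On log2(FPKM + 0.1) the limma trend was -0.15 per step with an adjusted p of 0.41. The transcript length that counts and FPKM jointly imply was between 6410 and 6475 bases in the untreated, 0, 10 and 30 nM libraries, but 4008 at 100 nM and 3418 at 300 nM. Annotated coding transcripts of FOSL2 span 889 to 6713 bases, and the part of isoform assignment in this mismatch was not tested. The time series gave implied lengths from 4635 to 6420 bases.

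**Figure D3:**
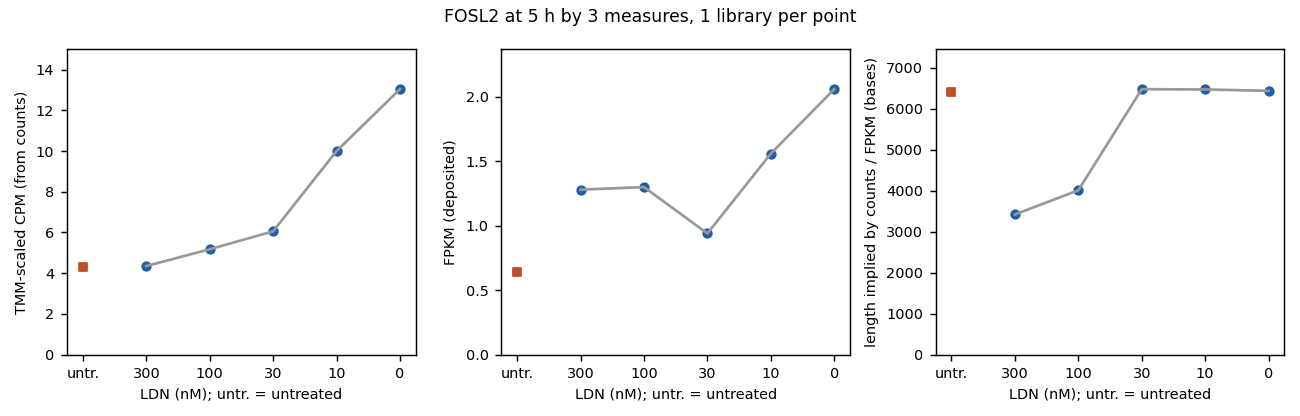
FOSL2 at 5 h in each dose-response library (x axis, LDN in nM, square for untreated) as TMM-scaled CPM, deposited FPKM and the length implied by their ratio in bases. CPM falls from 13.04 to 4.35 with LDN, whereas FPKM is 1.28 at 300 nM and the implied length drops to 3418 bases there.

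JUND measured 106, 117, 105, 95.5 and 76.0 CPM from 0 to 300 nM and 51.8 CPM untreated. It was highest at 10 nM and lowest at 300 nM among the libraries with BMP4. The trend was -0.12 per step (SE 0.03, adjusted p = 0.0052), lost without the 300 nM library (-0.06, adjusted p = 0.145) and with DESeq2 (adjusted p = 0.051). ATF3 measured 10.0, 11.7, 12.9, 14.3 and 17.8 CPM from 0 to 300 nM, rising at each dose, and 18.1 CPM untreated. Its trend was 0.20 per step (SE 0.03, adjusted p = 0.00015) and held in 5 of 5 fits without 1 library.

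The other 6 members tested did not pass. FOS kept between 8.76 and 9.91 CPM over the LDN doses, with a trend of -0.02 per step (SE 0.03, adjusted p = 0.70). JUN kept between 17.2 and 19.8 CPM (-0.00 per step, adjusted p = 0.95), IER2 between 151 and 165 CPM (0.02, adjusted p = 0.29) and FOSL1 between 1.69 and 1.85 CPM (-0.02, adjusted p = 0.87). In these 4 genes the highest dose-response level was at most 1.152 times the lowest. EGR1 ran from 2.84 to 4.47 CPM (0.13 per step, adjusted p = 0.12) and JUNB from 4.14 to 5.88 CPM (0.10, adjusted p = 0.14). HOOK2, which overlaps JUNB, stood at 82.2 to 92.8 CPM in these libraries.

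**Figure D4:**
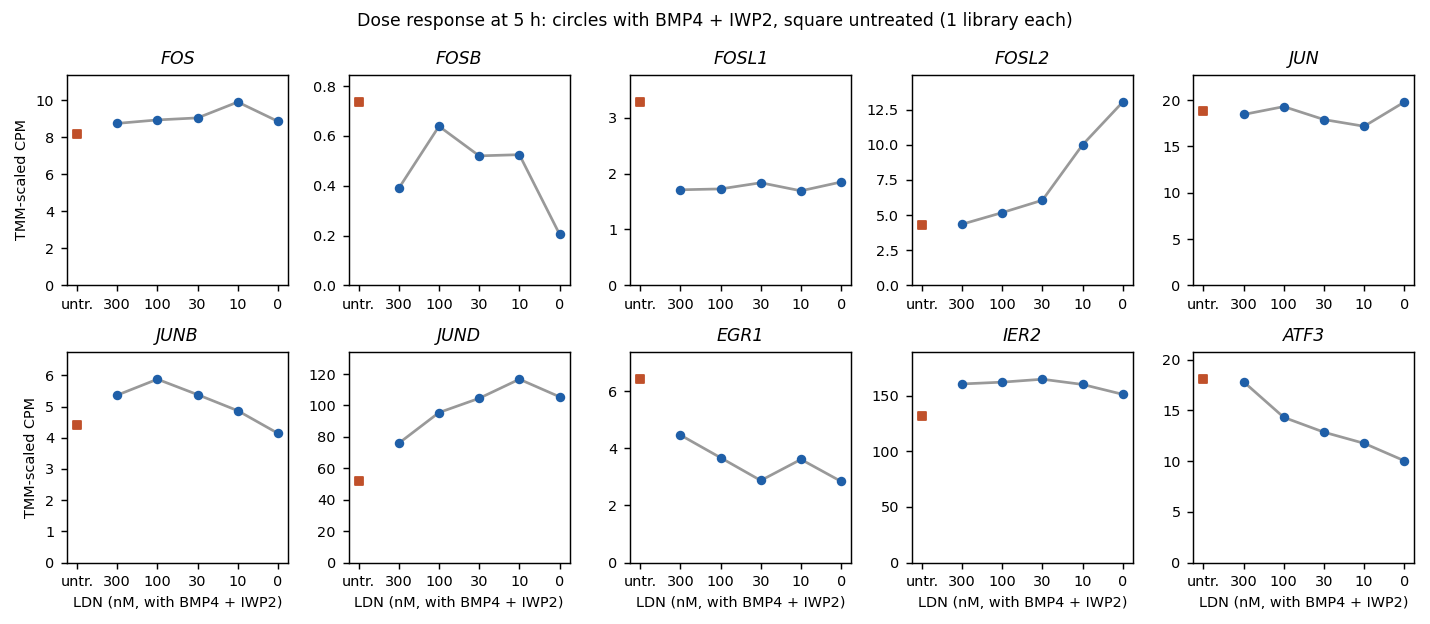
Level of each gene at 5 h (TMM-scaled CPM, linear axes from 0) against LDN dose in nM, ordered from untreated through 300 nM to 0 nM, with circles for libraries with BMP4 and IWP2, a square for the untreated library and 1 library per point. FOSL2 runs from 4.35 CPM at 300 nM to 13.04 CPM at 0 nM and ATF3 from 17.8 to 10.0 CPM, while FOS stays between 8.76 and 9.91 CPM.

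BMP4 without LDN was set against untreated cells at 5 h, as 1 library each, so no test was possible and the 95% intervals cover counting error only. BMP4, IWP2, RI as the treatment labels give it, and the mitochondrial share differ together here and cannot be told apart. Of the 9 members above the filter, FOSL2 and JUND were past 2-fold higher and EGR1 past 2-fold lower, against 5.43% and 2.61% of 14877 genes. FOSL2 was 1.61 higher on the log2 scale (interval 1.22 to 2.01) and JUND 1.03 (0.91 to 1.14). EGR1 fell from 6.42 to 2.84 CPM, a log2 difference of -1.18 (-1.62 to -0.74). FOSB, which is not among the 14877, had 6 against 11 counts, or 0.21 against 0.74 CPM (-1.84, -3.56 to -0.28). ATF3 (-0.85, -1.09 to -0.61) and FOSL1 (-0.83, -1.41 to -0.24) were lower by less than 2-fold. IER2 differed by 0.20 (0.13 to 0.28), and the intervals of FOS (0.12, -0.20 to 0.44), JUN (0.07, -0.14 to 0.28) and JUNB (-0.09, -0.54 to 0.36) included 0.

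With 300 nM LDN, FOSL2 and ATF3 were within counting error of the untreated library, at log2 differences of 0.02 (-0.41 to 0.47) and -0.02 (-0.23 to 0.19). JUND stayed above it by 0.55 (0.44 to 0.67) and IER2 by 0.29 (0.21 to 0.36). EGR1 (-0.52, -0.90 to -0.14) and FOSL1 (-0.94, -1.52 to -0.36) stayed below it, while the intervals of FOS, FOSB, JUN and JUNB included 0. These differences are of counts: the deposited FPKM of FOSL2 was 1.28 at 300 nM and 0.64 untreated. BMP4, IWP2, LDN, RI as labelled and the mitochondrial share (4.49% against 7.89%) differ together between these libraries and cannot be told apart.

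Per length, on the deposited FPKM scale, JUND made up most of the summed level of the 7 FOS and JUN family genes in every library. Its share was 71.4% and 72.4% in the 0 h pair and reached 82.5% at 4 h and 86.6% at 42 h. At 5 h its share was 78.7% without LDN, 72.4% with 300 nM and 60.8% in untreated cells. JUN family FPKM exceeded FOS family FPKM by 5.08 and 7.28 times at 0 h and by 16.4 times at 42 h. In the dose response this ratio was 8.38 without LDN, 6.77 at 300 nM and 3.91 untreated. FOSL2, despite its large change, took 1.03% and 1.32% of the sum at 0 h, at most 3.13% later (12 h) and 2.197% at 42 h. The length implied by counts and FPKM was not constant for other members either. For JUND it was 1435 bases without LDN and 1649 untreated, and for FOS 1254 at 4 h and 899 at 42 h. The part of this in the shares and ratios was not tested.

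**Figure D5:**
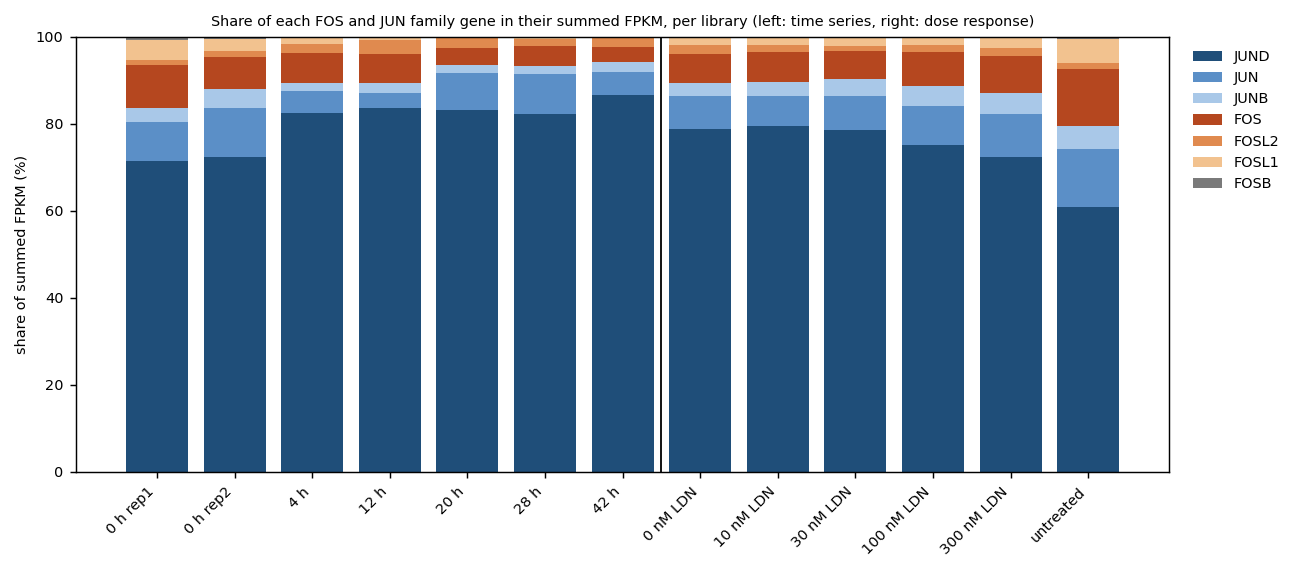
Share of each FOS and JUN family gene in their summed FPKM (y axis, percent, stacked to 100) in each library (x axis), with the time series left of the line and the dose response right of it. JUND takes 71.4% and 72.4% at 0 h, 86.6% at 42 h and 60.8% in untreated cells.

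Other genes of the same pathways were taken from lists. Of 24 other immediate early genes 19 were tested. At 4 h 1 was higher (GADD45B, a growth arrest and stress gene, 2.25, SE 0.32, adjusted p = 2.0e-10) and 1 lower (MYC, -1.35, SE 0.35, adjusted p = 0.0040). Of all genes 4.39% were higher and 0.632% lower, and the list median was 0.23 against -0.01 for all genes. Higher calls numbered 9, 13, 15 and 12 at 12, 20, 28 and 42 h, against 7.04%, 12.4%, 13.3% and 19.9% of all genes higher. MYC and TRIB1 were lower each time, against 2.64%, 6.01%, 7.04% and 17.8% of all genes lower. SRF, the factor that binds CArG boxes, was among those higher at 20 h (1.06, adjusted p = 0.0092) and 28 h (0.92, adjusted p = 0.028). At 42 h the largest changes were BTG2, an antiproliferative gene, at 5.88 (SE 0.35), RHOB, a small GTPase, at 5.49 (SE 0.36), and GADD45B at 5.11 (SE 0.33), and the list median was 1.43. BTG2 went from 2.31 and 2.12 CPM at 0 h to 129.7 CPM. With LDN, 8 of the 19 were lower and 3 higher, against 10.9% and 10.4% of all genes (median -0.05 per step against -0.00 for all genes). SGK1, a kinase induced by serum and glucocorticoids, fell by 0.56 per step (SE 0.02, adjusted p = 7.7e-09), with levels of 46.6 CPM in the 0 nM and 9.81 CPM in the 300 nM library. GADD45B fell by 0.44 (SE 0.03, adjusted p = 4.3e-07) and BTG2 fell by 0.32 (SE 0.06, adjusted p = 0.0016) per step.

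Of 13 other bZIP partners, 11 were tested over time and 12 over dose. JDP2, which dimerizes with JUN proteins and represses, was higher at every time, by 1.004 (SE 0.32, adjusted p = 0.037) at 4 h and 3.88 (SE 0.32, adjusted p = 1.5e-31) at 42 h. With LDN it fell by 0.13 per step (SE 0.02, adjusted p = 0.00059). At 42 h 4 of the 11 were higher and 1 lower (median 0.30), against 19.9% and 17.8% of all genes, and with LDN 2 of 12 were higher and 3 lower, against 10.4% and 10.9%. Of 17 genes for SRF cofactors and upstream kinases, 0 passed the edgeR test at 4 or 12 h. The shares of all genes were 4.39% higher and 0.632% lower at 4 h, and 7.04% and 2.64% at 12 h. At 42 h 5 were higher, among them MAPK14 (1.55, SE 0.32, adjusted p = 6.4e-06), and 2 lower, against 19.9% and 17.8% of all genes, and with LDN 3 were higher and 1 lower, against 10.4% and 10.9%.

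Of 16 genes often cited as AP-1 targets, 11 were tested. At 42 h 2 were higher, EZR (2.40, SE 0.34, adjusted p = 1.2e-11) and SPP1, and 6 lower, among them CD44 (-3.66, SE 0.46, adjusted p = 2.1e-14) and CCND1, a cyclin (-2.84, SE 0.39, adjusted p = 4.6e-12), with a median of -1.19, against the same 19.9% and 17.8%. With LDN 2 were higher and 1 lower, against 10.4% and 10.9%. Of 8 heat shock and handling genes, 0 passed the edgeR test at 4 h, against 4.39% of all genes higher and 0.632% lower. At 12 h 0 passed as well, against 7.04% and 2.64%. With LDN 1 (HSPA8) was lower (-0.02 per step, SE 0.01, adjusted p = 0.044) and 0 higher, against 10.9% and 10.4%. At 42 h 3 were higher and 1 lower, against 19.9% and 17.8%. The summed level of these 8 genes was 3012 to 4078 CPM in the time series and 7600 to 8085 CPM in the dose response, where libraries were prepared differently.

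Likeness of profile was measured by Pearson's r of log2(CPM + 0.5), centred within each experiment, over 13 libraries and among 9583 genes. These averaged 10 CPM or more in both experiments, except EGR1 and FOS, which were kept although they averaged less in the dose response. Points share libraries and depth, so these values describe and carry no test. The genes most like EGR1 were KIAA1522 (0.93), EFNA4 (0.93) and RALGAPA2 (0.92). Those most like FOS were TRAF5 (0.96), RBM14 (0.96) and SPRING1 (0.96). Those most like JUN were LASP1 (0.96), COL26A1 (0.95) and GPRC5C (0.95), but within the dose response these had r of -0.14, -0.08 and -0.39. Among the members themselves over the 7 time-series libraries, r was 0.97 for FOSL2 with JUND, 0.96 for FOS with FOSL2 and 0.91 for EGR1 with JUN.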

How the data were processed

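The 13 libraries are bulk RNA-seq of RUES2 cells with GFP::SMAD4. Reads were trimmed with Cutadapt, mapped to GRCh38 with STAR 2.7.8a and counted with RSEM 1.3.3 by the authors. Which ENSEMBL release was used is not given in the sources used here. The deposited expected counts are whole numbers without scaling for depth. The deposited FPKM values were scaled by the authors for length and depth.

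Counts were tested with edgeR 4.0.16 (TMM, quasi-likelihood test, Benjamini-Hochberg adjustment at 0.05, a minimum mean of 1 CPM), with limma 3.58.1 on log2(FPKM + 0.1 or 1) and DESeq2 1.42.0 as alternatives, under R 4.3.3. Residual degrees of freedom were 3 for dose, 5 for hours and 1 for single times, where the prior degrees of freedom were infinite. Intervals for single libraries are at 95% and cover counting error only. Library totals ranged from 15600931 to 71333471 counts. Gene coordinates came from GENCODE on GRCh38. The edgeR fits for dose, for hours and for 42 h against 0 h were first tested on simulated counts with 200 planted log2 changes of 2. They found 100%, 88.5% and 98% of these, with 15, 9 and 12 false calls. Within each fit every simulated gene had the same dispersion. These figures therefore cannot show how the fits behave when genes differ in spread. The limma and DESeq2 alternatives were not simulated.

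All 10 members are named, and of each list up to 3 genes with the largest absolute estimates among those that passed a test. TRIB1, SRF, the pluripotent markers, EOMES, GABRP, and SPP1 at 42 h, were named after their values were seen. The values of 1 listed gene that the rule names are not reported here. Members, lists and tests were chosen with earlier results of these data known. Alternatives covered scaling, filter, tool, pseudocount, dose and time coding, the untreated library and leaving out each library.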

Additional observations from a re-analysis of the deposited data

Results flagged for a closer look

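EGR1 stood out because it was lower with BMP4 at 5 h of the dose response but not at 4 h of the time series. At 5 h the library with BMP4 and no LDN was below the untreated library by -1.18 on the log2 scale (2.84 against 6.42 CPM), whereas at 4 h of the time series EGR1 lay above both 0 h libraries, by 0.09 and 0.46. The 4 h level exceeded the 0 h mean by 0.26, less than the gap of 0.37 within the 0 h pair. The difference between the experiments was not tested. Extraction kit, library preparation, baseline medium and time differ between them and cannot be told apart. The 4 h change did not pass the test (0.27, SE 0.32, adjusted p = 0.995 by the quasi-likelihood test of edgeR, Benjamini-Hochberg adjusted).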

How the results depend on the processing

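No paired analysis was possible because only the 0 h group had a second library. For the dose trend, 1556 genes were higher and 1624 lower, with 1 member higher and 2 lower. DESeq2 left 1 member lower. Adding the untreated library as a last step left 1001 genes higher and called 2 members higher (EGR1 joined, adjusted p = 0.039). limma on log2(FPKM + 0.1) called 334 genes higher, 522 lower and 1 member lower, and on log2(FPKM + 1) 330, 517 and 1. Without 1 library the counts ranged from 874 to 1423 genes higher, 1104 to 1551 lower, and 1 to 2 members lower. For the trend with hours, 3072 genes were higher and 2793 lower, with 6 members higher and 1 lower. Library totals called 3 members higher, log2(hours + 1) called 2047 genes higher, 1366 lower and 0 members lower by edgeR, and limma called 1973 and 1968 genes higher with the smaller and larger pseudocount. Without 1 library the counts ranged from 1871 to 3436 genes higher, 1386 to 3166 lower, 2 to 7 members higher and 0 to 1 lower, with the fewest genes without the 42 h library. Over single times, limma on log2(FPKM + 0.1) called 1511 genes higher, 1868 lower and 4 members higher, against 3922, 3146 and 8. The causes were not tested.

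Changes of sign occurred in values near 0. The dose trend of JUN became 0.000804 without the filter, 0.00121 with the untreated library and, without 1 library, ranged from -0.0190 to 0.0414. That of IER2 became -0.0271 with the untreated library and ranged from -0.00131 to 0.0349 without 1 library, and that of FOSL1 became 0.114 with the untreated library. At 12 h JUN became 0.00276 with library totals and 0.0483 with limma. Without the filter JUNB at 4 h became -0.0663 and ATF3 at 20 h became 0.00325. Scaling moved the median change of all genes at 42 h from -0.01 with TMM to -0.25 with library totals. The time contrasts without a 0 h library had no residual degrees of freedom and give values only.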
